A study of Mus musculus with 20 samples.

Results

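The transcripts of 35 genes of the Nrf2 antioxidant response were followed in bulk RNA sequencing of mouse kidney tumors and normal kidneys. They are enzymes and transporters that make and recycle glutathione, run the thioredoxin cycle, supply NADPH, reduce quinones and carbonyls, degrade heme and export conjugates. Other than the microsomal Mgst1, the glutathione transferases and glutathione peroxidases were not included. The genes were chosen by name from the 54532 genes of the count table, and all 35 were among the 15354 genes with enough reads to be tested. The 20 libraries are 10 tumors and 10 normal kidneys of C57BL/6 mice of the genotype LSL-Cas9/+; Pax8 Cre/+. In these mice Cas9 is made in cells in which the Pax8 promoter drives Cre, which include the epithelium of the renal tubules. A Cre-less adeno-associated virus (AAV) that carries sgRNAs for Vhl, Pbrm1, Keap1 and Tsc1 was injected into the kidney of the mice that gave the tumors. Both groups came from a cohort of 10 such mice and share the alleles, and whether the normal kidneys had received the virus is not stated. The sample labels give no age and do not say which library belongs to which mouse. Each library is RNA of pulverized frozen tissue, in which fewer cells of a type and less RNA per cell cannot be told apart.

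Keap1 is the adaptor of a ubiquitin ligase that keeps the transcription factor Nrf2, encoded by Nfe2l2, at a low level. When Keap1 is lost or its cysteines are modified, Nrf2 is no longer degraded, enters the nucleus and, paired with a small Maf protein, binds the antioxidant response element (ARE) near its target genes. Glutathione and thioredoxin remove peroxides with electrons from NADPH. Many of the genes that supply cystine, glutathione, thioredoxin and NADPH are commonly described as targets of Nrf2. In the kidney the proximal tubule is rich in glutathione and in transporters that secrete conjugates into the urine.

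The core of the ARE, TGACNNNGC, was searched on both strands of RefSeq promoter windows (GRCm38.p6) that run from 250 bases before to 50 bases after a transcription start. A window was given for 27 of the 35 genes. The core was found in at least 1 window of 11 of these 27 (40.7%), and in 14% of all 27025 gene symbols with a window. By windows the shares were 34.3% of 35 and 12.4% of 32851. One core of each of 8 of the 11 genes is shown, so that glutathione, thioredoxin, NADPH, export and glucuronidation genes are each represented. Matches in G6pdx, Abcc4 and Mgst1 and a second match in Ugdh, 94 bases before the start, are not printed. The cores are given 5′ to 3′ on the strand of the gene, with the 9 bases of the core in capitals, which read as the reverse complement where the core lies on the opposite strand.
Gclm, chr3:122245399-122245455, + strand: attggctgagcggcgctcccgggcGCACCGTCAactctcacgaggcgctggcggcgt
Txnrd1, chr10:82859104-82859132, + strand: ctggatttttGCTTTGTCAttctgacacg
Srxn1, chr2:152105542-152105570, + strand: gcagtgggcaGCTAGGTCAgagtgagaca
Prdx1, chr4:116685442-116685498, + strand: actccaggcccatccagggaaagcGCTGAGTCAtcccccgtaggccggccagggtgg
Me1, chr9:86695902-86695930, - strand: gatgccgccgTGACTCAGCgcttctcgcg
Pgd, chr4:149166061-149166089, - strand: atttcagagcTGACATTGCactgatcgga
Abcc2, chr19:43782200-43782228, + strand: ctcactgggaTGACATAGCattcatctag
Ugdh, chr5:65435956-65435984, - strand: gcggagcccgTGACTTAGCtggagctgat
The core began 134 bases before the transcription start in Gclm, 133 in Prdx1, 132 in Ugdh, 98 in Abcc2, 92 in Txnrd1 and 6 in Me1, and just after it in Srxn1 and Pgd, where for Txnrd1 and Pgd the start is the second one listed. By the gene positions of the count table, the printed stretches of Gclm, Prdx1 and Ugdh lie before the gene and the others overlap it. The cores of Prdx1 and Me1 also contain TGACTCA, the letters of an AP-1 site. A match of letters is not evidence of binding. Of the 11 genes with a match, 9 rose in tumors by the test described next, and of the 16 with a window and no match, 14 rose. The windows reach only 250 bases before a start, so a gene with no match may still have an ARE elsewhere.

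Tumor libraries held 18447394 to 24902973 counts each, and normal kidney libraries 14737516 to 26679704. Of the targeted genes, Keap1 transcripts were higher in tumors, with a log2 fold change of 0.83 (SE 0.09, adjusted p = 1.3e-07). Nfe2l2 transcripts were lower, at -0.79 (SE 0.16, adjusted p = 0.000282), as were those of Vhl, at -0.49 (SE 0.12, adjusted p = 0.00179), and Tsc1, at -0.61 (SE 0.18, adjusted p = 0.00871). Pbrm1, at -0.28 (SE 0.19, adjusted p = 0.23), did not pass the test. An sgRNA can leave the transcript of a gene in place, so these levels do not check the editing.

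Some libraries stood apart in the markers of other cells. The summed level of 5 markers of injured tubules (Havcr1, Lcn2, Krt20, Vcam1 and Sox9) was 3056, 5086 and 2040.2 CPM (read counts scaled to library size) in normal kidneys 5, 7 and 8, and 28.2 to 316 CPM in the other normal kidneys. The same 3 libraries had the lowest summed levels of 10 proximal tubule markers among normal kidneys, at 2237, 1810.1 and 3223 CPM against 5310.1 to 11617 CPM. Tumors held 264 to 1612 CPM of the injury markers. These 5 genes did not move together: 1 was higher and 1 lower in tumors, and 3 did not pass the test. Their log2 fold changes ran from -5.00 to 1.93. Tumor 7 had the lowest proximal tubule sum of all 20 libraries, 1227 CPM, and the highest sum of 9 macrophage markers, 2465 CPM against 366 to 1066 CPM in the other tumors. It also had the most fibroblast marker RNA, 7880 CPM against at most 533 CPM in another tumor. Its sums of erythroid, adipocyte and urothelium markers, 4473.5, 738 and 126 CPM, were the highest of the tumors as well. Macrophage markers summed to 153 to 645 CPM in normal kidneys, and 7 of the 9 rose in tumors. The normal kidney with 645 CPM was 9, which also had the highest erythroid sum (5922 CPM) and the lowest podocyte sum (80.9 CPM) of the normal kidneys. Of all genes tested, that library was the lowest normal kidney for 32.6% and the highest for 30.2%. The markers of the loop of Henle, of principal cells, of intercalated cells and of podocytes were lower in tumors for all of the 3, 4, 4 and 3 genes of each list. Tumors held at most 5.46 CPM of the loop of Henle markers, and normal kidneys at least 3581 CPM. The part of these differences in the results for the 35 genes was not tested, other than by leaving libraries out.

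**Figure D1:**
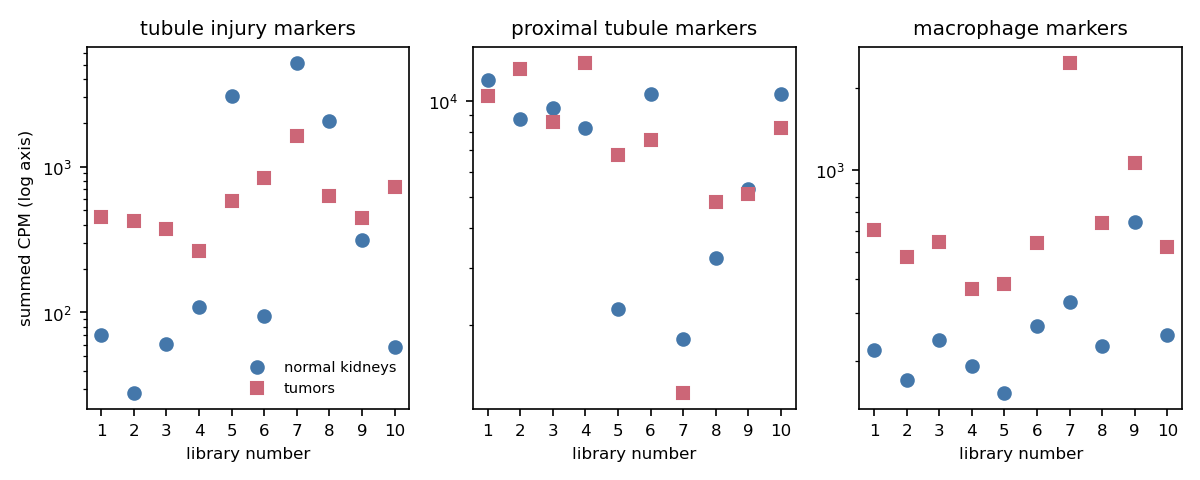
Summed CPM (log axes) of 5 tubule injury markers, 10 proximal tubule markers and 9 macrophage markers in each library, with normal kidneys as circles and tumors as squares, placed by library number. Normal kidneys 5, 7 and 8 lie above all other normal kidneys for injury markers and are the lowest normal kidneys for proximal tubule markers, and tumor 7 is the lowest tumor for proximal tubule and the highest for macrophage markers.

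Of the 35 genes, 26 were higher in tumors at an adjusted p under 0.05, 0 were lower and 9 did not pass the test. Over all genes tested, 23.6% were higher and 23.8% lower. The 35 genes were listed with earlier results of these data known, so setting these shares side by side is a description and not a test. With an unadjusted p, 27 of the 35 were under 0.05, all of them higher in tumors. Over all 15354 genes tested, 8277 were under 0.05, in either direction. DESeq2 and limma-voom each called 1 gene, Aldh3a1, lower. At a log2 fold change above 1 and an unadjusted p under 0.001, 20 of the 35 were higher, and 8.85% of all genes, and 0 were lower, against 10.2% of all genes. Every tumor lay above every normal kidney for 11 genes, a pattern that 5.87% of all genes had. The converse pattern was seen for 0 of the 35 and for 4.74% of all genes. The median log2 fold change of the 35 genes was 1.12, with a range from -0.23 to 5.68, and that of all genes tested was -0.02. With scaling to library totals the median of all genes was -0.14 and that of the 35 genes 0.99. All 5 thioredoxin and peroxiredoxin genes and all 4 exporters rose, as did 5 of 6 NADPH genes, 6 of 8 reductases, 2 of 5 glutathione genes and 4 of 7 other genes. Without normal kidneys 5, 7 and 8, a comparison added after the data were seen, 32 genes rose, against 26.6% of the 15834 genes then tested. One of these libraries was the highest normal kidney for 26 of the 35 genes, so leaving them out by itself raises the fold change of such genes.

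**Figure D2:**
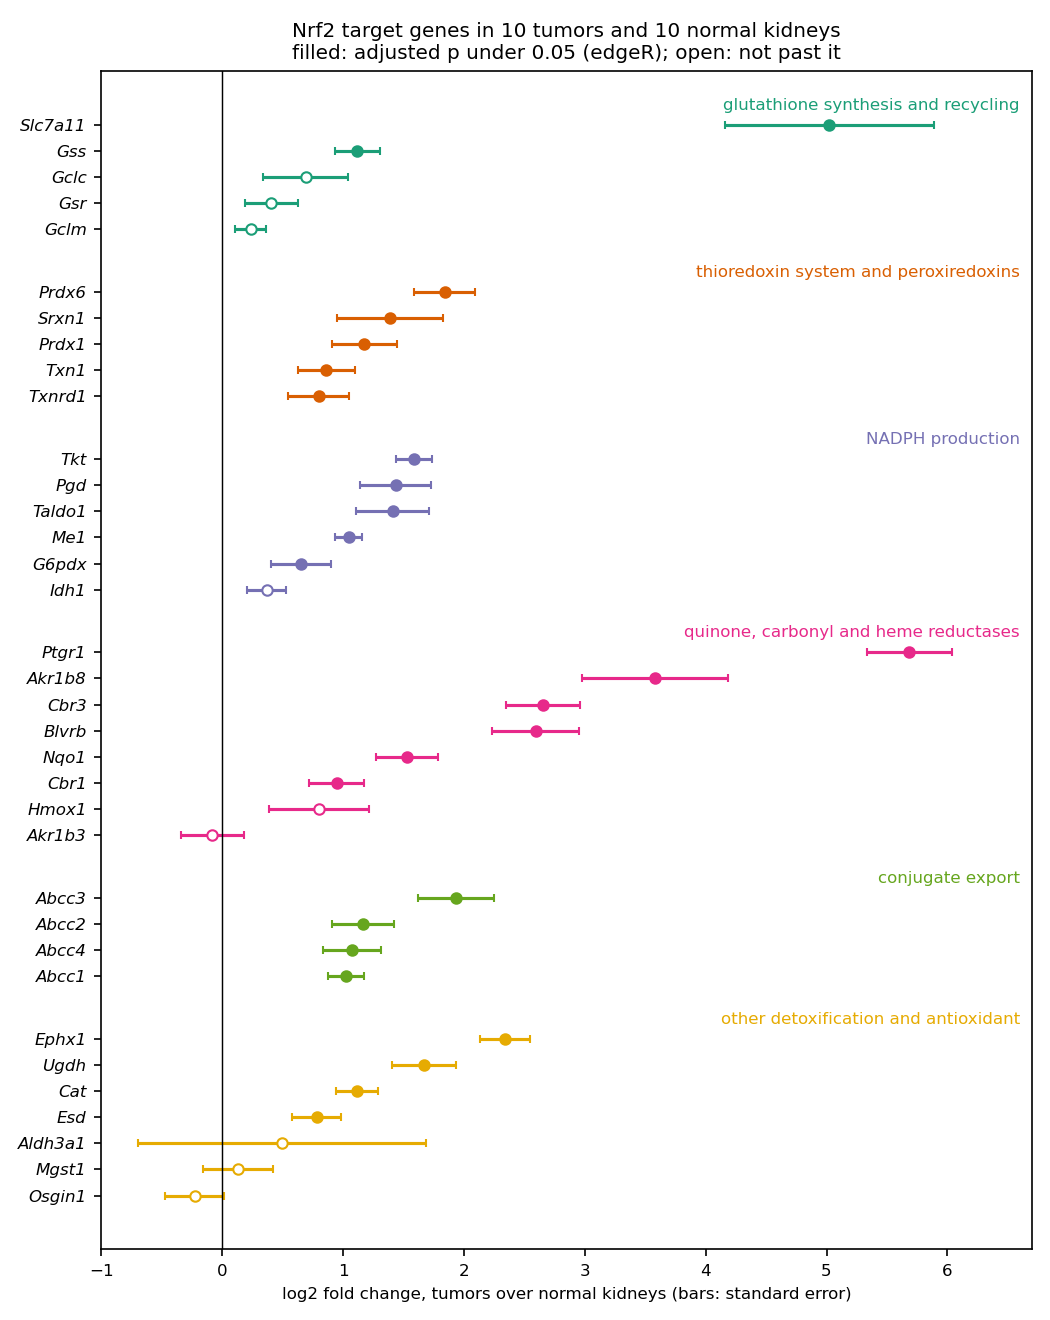
Log2 fold change of each of the 35 genes, tumors over normal kidneys, with its standard error (n = 10 and 10), ordered by size within 6 classes. Filled points, 26 of the 35, passed an adjusted p under 0.05 in edgeR's quasi-likelihood test, and Ptgr1 and Slc7a11 lie farthest to the right.

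The glutathione genes differed widely in their response. Slc7a11, the transporter that brings in cystine for glutathione synthesis, is encoded at chr3:49892526-50443614 (mm10, as for all gene positions here) and had 62.6 to 381 CPM in tumors (median 163) and 0.180 to 30.1 CPM in normal kidneys (median 0.941). All tumors were above all normal kidneys, and the 3 highest normal kidneys were 7 at 30.1, 5 at 14.9 and 8 at 3.37 CPM. The others were at most 1.38 CPM. The log2 fold change of 5.02 (SE 0.86, adjusted p = 6.18e-05) became 8.06 (adjusted p = 2.1e-09) when these 3 libraries were left out. Leaving out the highest normal kidneys of a gene by itself raises its fold change. Here and for the genes below, such values show the weight of these libraries and are not separate support. Gclc (chr9:77754535-77794485) and Gclm (chr3:122245557-122270732) encode the catalytic and the modifier subunit of glutamate-cysteine ligase, the rate-limiting enzyme of glutathione synthesis. Gclc had 396 to 1405 CPM in tumors (median 813) and 185 to 1402 CPM in normal kidneys (median 280.0). Normal kidney 5 was as high as the highest tumor, tumor 2, and the log2 fold change of 0.69 (SE 0.35, adjusted p = 0.112) did not pass the test. It passed without normal kidney 5 alone (1.01, adjusted p = 0.011) and, without normal kidneys 5, 7 and 8, it was 1.56 (adjusted p = 3.12e-05). Gclm had 379 to 625 CPM in tumors (median 482) and 323 to 559 CPM in normal kidneys (median 412), and its log2 fold change of 0.24 (SE 0.13, adjusted p = 0.139) did not pass the test either. Gss, which adds glycine in the last step of glutathione synthesis, had 228 to 626 CPM in tumors (median 398) and 132 to 354 CPM in normal kidneys (median 167). It rose with a log2 fold change of 1.12 (SE 0.19, adjusted p = 4.6e-05), and 8 tumors lay above every normal kidney. Its gene overlaps Acss2 on the opposite strand, and how strand was used in counting is not given in the sources used here. Gsr, the reductase that returns oxidized glutathione to its reduced form, had 245 to 481 CPM in tumors (median 381) and 167 to 615 CPM in normal kidneys (median 223). Its log2 fold change of 0.41 (SE 0.22, adjusted p = 0.132) did not pass the test, and it passed without normal kidney 5 (0.61, adjusted p = 0.00863).

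The 5 thioredoxin and peroxiredoxin genes rose. Prdx6, a peroxiredoxin that uses glutathione and also acts on phospholipids, had 673 to 1742 CPM in tumors (median 838) and 180.0 to 659 CPM in normal kidneys (median 236). All tumors lay above the highest normal kidney, 9, and the log2 fold change was 1.84 (SE 0.25, adjusted p = 3.59e-06). Prdx1, a peroxidase of the cytosol that is recharged by thioredoxin, was the most abundant of the 5, with 1548 to 2839.7 CPM in tumors (median 1983) and 521 to 2544 CPM in normal kidneys (median 650.4). Normal kidney 7 reached the range of the tumors, and the gene rose with a log2 fold change of 1.18 (SE 0.27, adjusted p = 0.0011). Srxn1, the sulfiredoxin that repairs overoxidized peroxiredoxins, had 425 to 882 CPM in tumors (median 618) and 72.0 to 948 CPM in normal kidneys (median 102). Normal kidneys 7, at 948 CPM, and 5, at 574 CPM, lay within or above the range of the tumors, and the remaining normal kidneys other than 8 were at most 135 CPM. The log2 fold change of 1.39 (SE 0.44, adjusted p = 0.0126) became 2.71 (adjusted p = 5.94e-10) without normal kidneys 5, 7 and 8. Txnrd1, the cytosolic thioredoxin reductase, had 362 to 802 CPM in tumors (median 567) and 169 to 741 CPM in normal kidneys (median 249.9). All 10 tumors were above the median normal kidney, although normal kidneys 5 and 7 were within their range, and the log2 fold change was 0.80 (SE 0.25, adjusted p = 0.0121). Without normal kidneys 5, 7 and 8 it was 1.35 (adjusted p = 1.62e-06). Txn1, the cytosolic thioredoxin, had 329 to 498 CPM in tumors (median 438) and 138 to 564 CPM in normal kidneys (median 164). Its highest value of all libraries was that of normal kidney 9, and it rose with a log2 fold change of 0.86 (SE 0.23, adjusted p = 0.00451). Processed copies of Txn1 and Prdx1 exist in the genome, and how reads shared between copies were counted is not given in the sources used here.

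Of the 6 NADPH genes, 5 rose, namely 4 of the pentose phosphate pathway and the cytosolic malic enzyme. Other enzymes of that pathway, Pgls, Rpe and Rpia, did not pass the test, with log2 fold changes of -0.24, -0.12 and -0.31 (adjusted p = 0.378, 0.383 and 0.164). Tkt, the transketolase that links this pathway to glycolysis, encoded at chr14:30548359-30574720, had 685 to 1283 CPM in tumors (median 956) and 235 to 480.4 CPM in normal kidneys (median 303), with no overlap and a log2 fold change of 1.59 (SE 0.15, adjusted p = 2.12e-08). Pgd, the second of the dehydrogenases that make NADPH in this pathway, had 659 to 828 CPM in tumors (median 696), a narrow range. It had 111 to 623 CPM in normal kidneys (median 165), where the 3 highest were 5, 7 and 8. The groups did not overlap, and the log2 fold change of 1.44 (SE 0.29, adjusted p = 0.000395) became 2.24 (adjusted p = 4e-11) without these 3 libraries. Taldo1, the transaldolase, had 804 to 1148 CPM in tumors (median 922) and 170.3 to 1073 CPM in normal kidneys (median 205). Only normal kidney 7 entered the range of the tumors, and the log2 fold change was 1.41 (SE 0.30, adjusted p = 0.000596). G6pdx, the first and rate-limiting dehydrogenase of the pathway, had 63.1 to 177 CPM in tumors (median 112) and 44.3 to 148 CPM in normal kidneys (median 51.6). Its log2 fold change of 0.66 (SE 0.25, adjusted p = 0.0343) passed the test. The call was lost without any 1 of normal kidneys 1, 2, 3, 4, 6, 9 and 10 or of tumors 3, 7, 8 and 9, with adjusted p-values up to 0.0677, whereas without normal kidneys 5, 7 and 8 the value was 1.18 (adjusted p = 3.26e-05). The gene overlaps Ikbkg on the opposite strand, which had a similar level. Me1, the cytosolic malic enzyme, had 386 to 694 CPM in tumors (median 539) and 194 to 294 CPM in normal kidneys (median 277). Both groups were narrow and did not overlap, and the log2 fold change was 1.05 (SE 0.11, adjusted p = 1.31e-07). Idh1, the cytosolic isocitrate dehydrogenase, had 499 to 872 CPM in tumors (median 642) and 233 to 729 CPM in normal kidneys (median 535). Its log2 fold change of 0.37 (SE 0.16, adjusted p = 0.0667) did not pass the test. It passed without normal kidney 7, at 0.44 (adjusted p = 0.028), and without tumor 9, at 0.41 (adjusted p = 0.04998).

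The reductases included Ptgr1, the gene with the largest log2 fold change of the 35 when all 20 libraries were used. Ptgr1, which reduces prostaglandins and other unsaturated aldehydes and ketones and is encoded at chr4:58965439-58987119, had 338 to 742 CPM in tumors (median 539) and 4.78 to 29.2 CPM in normal kidneys (median 7.85). The lowest tumor, 9, was above the highest normal kidney, 7, and the log2 fold change of 5.68 (SE 0.35, adjusted p = 6.26e-11) corresponds to a 51.4-fold difference. Without normal kidneys 5, 7 and 8 it was 5.91 (adjusted p = 8.73e-11), below that of Slc7a11. Normal kidneys 5 and 8 were not among the higher normal kidneys for this gene, at 7.49 and 6.15 CPM. Akr1b8, an aldo-keto reductase encoded at chr6:34354119-34368463, had 245 to 439 CPM in tumors (median 311) and 3.95 to 132 CPM in normal kidneys (median 9.36). The groups did not overlap, and the normal kidneys other than 5, 7 and 8 were at most 10.9 CPM. The log2 fold change of 3.58 (SE 0.60, adjusted p = 4.88e-05) became 5.47 (adjusted p = 8.02e-12) without these 3. Akr1b3, the aldose reductase whose gene lies nearby at chr6:34302434-34317478, had 45.5 to 154 CPM in tumors (median 66.5) and 42.4 to 199 CPM in normal kidneys (median 65.1). Its log2 fold change of -0.08 (SE 0.26, adjusted p = 0.823) did not pass the test, and normal kidney 1 was its highest library.

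Cbr3 and Cbr1, carbonyl reductase genes that lie near each other at chr16:93683215-93690990 and chr16:93605853-93610505, both rose. Cbr3 had 124 to 439 CPM in tumors (median 284) and 9.57 to 96.3 CPM in normal kidneys (median 48.9), with no overlap and a log2 fold change of 2.65 (SE 0.31, adjusted p = 4.35e-07). Cbr1 had 243 to 913 CPM in tumors (median 768) and 163 to 589.9 CPM in normal kidneys (median 392). Its 9 tumors other than tumor 7 lay above every normal kidney, and the log2 fold change was 0.95 (SE 0.23, adjusted p = 0.002). Nqo1, the quinone reductase that is widely used as a readout of Nrf2, encoded at chr8:107388225-107403206, had 226 to 519 CPM in tumors (median 383) and 62.5 to 263 CPM in normal kidneys (median 99.7). Tumor 7 was again the exception, below normal kidneys 5 and 7, and the log2 fold change was 1.53 (SE 0.26, adjusted p = 4.91e-05). Hmox1, the inducible heme oxygenase, had 307 to 1904 CPM in tumors (median 449.7) and 49.6 to 648 CPM in normal kidneys (median 323). Tumor 7 lay far above the second highest tumor, which was at 615 CPM. The log2 fold change of 0.80 (SE 0.41, adjusted p = 0.117) did not pass the test and was 0.39 (adjusted p = 0.374) without tumor 7. Blvrb, a biliverdin and flavin reductase, had 142 to 288 CPM in tumors (median 205) and 11.7 to 93.8 CPM in normal kidneys (median 16.2). The groups did not overlap, and the log2 fold change was 2.60 (SE 0.36, adjusted p = 4.54e-06).

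**Figure D3:**
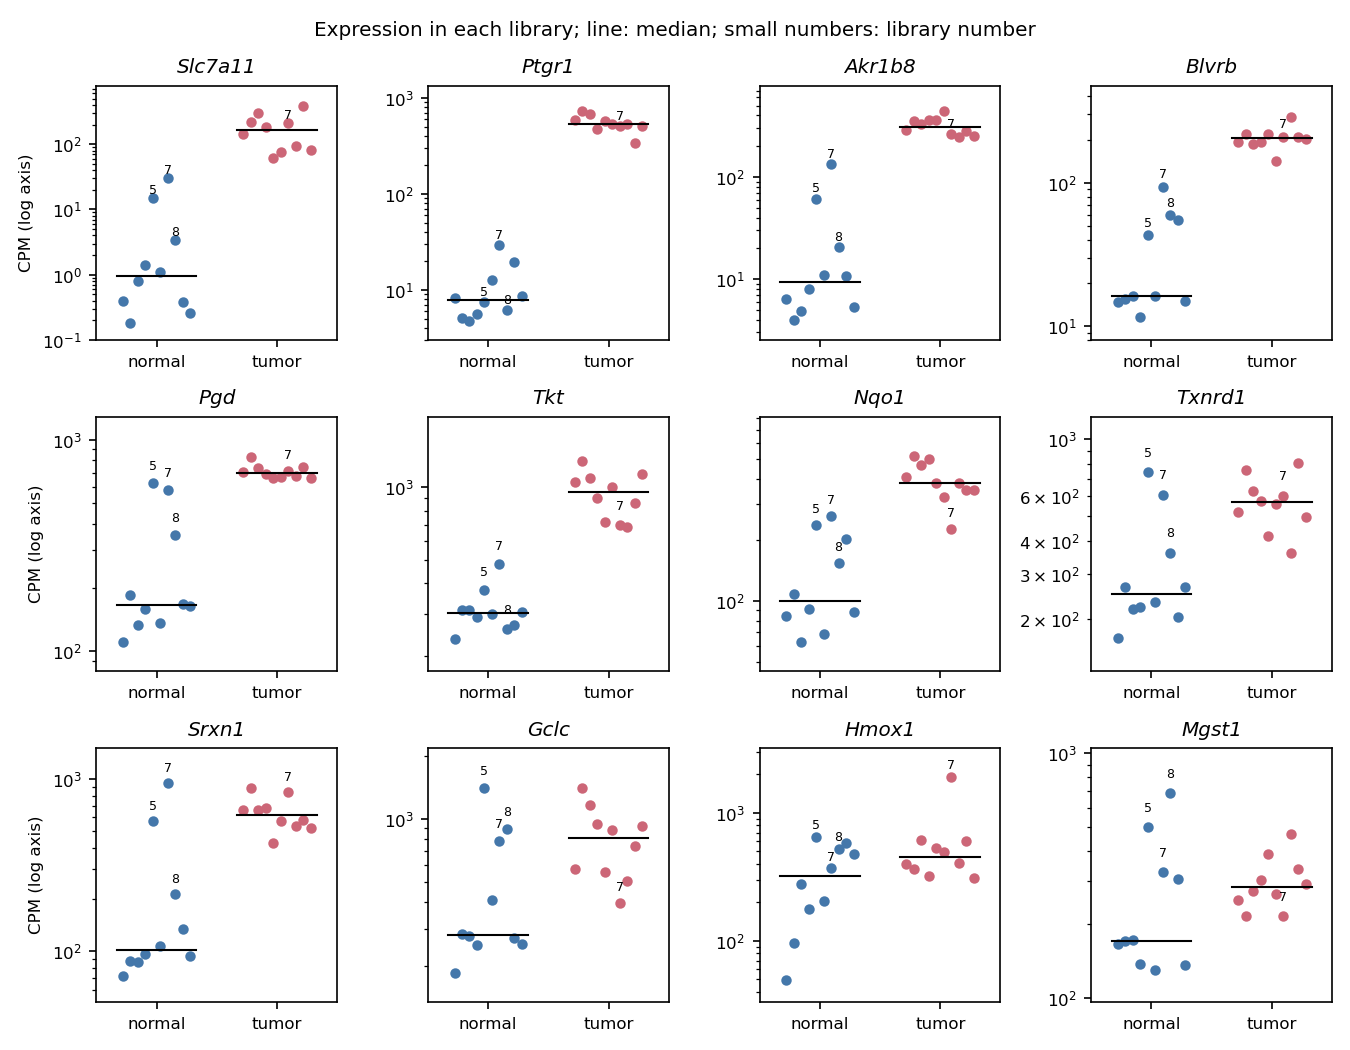
CPM (log axes) of 12 of the 35 genes in each library, with normal kidneys in blue, tumors in red and the median of each group as a line. The small numbers mark normal kidneys 5, 7 and 8 and tumor 7. Groups are apart for Slc7a11, Ptgr1, Akr1b8, Blvrb, Pgd and Tkt and overlap for Nqo1, Txnrd1, Srxn1, Gclc, Hmox1 and Mgst1.

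The 4 exporters of the ABCC family, which carry glutathione, glucuronide and sulfate conjugates out of cells, rose together. Abcc1 had 74.0 to 114 CPM in tumors (median 90.3) and 22.2 to 64.1 CPM in normal kidneys (median 47.4), with no overlap and a log2 fold change of 1.03 (SE 0.15, adjusted p = 8.61e-06). Abcc2, an exporter of the apical membrane of the proximal tubule, had 553 to 1512 CPM in tumors (median 1218) and 148 to 1027 CPM in normal kidneys (median 517). It rose by 1.16 (SE 0.26, adjusted p = 0.000798) on the log2 scale, with 8 tumors above every normal kidney. Abcc3, of the basolateral membrane, had 136 to 498 CPM in tumors (median 172), with tumors 8 and 9 the highest, and 26.7 to 142 CPM in normal kidneys (median 51.0). It rose with a log2 fold change of 1.94 (SE 0.32, adjusted p = 3.44e-05). Abcc4, an apical exporter that also carries cyclic nucleotides and urate, had 239.7 to 794 CPM in tumors (median 654) and 84.5 to 527 CPM in normal kidneys (median 274). Its log2 fold change was 1.08 (SE 0.24, adjusted p = 0.000963). Tumor 7 was the lowest tumor for Abcc2, Abcc3 and Abcc4 and the highest for Abcc1, and normal kidney 9 was the lowest normal kidney for Abcc1, Abcc2 and Abcc4.

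Of the remaining 7 genes, 4 rose. Ephx1, the microsomal epoxide hydrolase, encoded at chr1:180976210-181020904, had 209 to 694 CPM in tumors (median 601) and 78.8 to 184 CPM in normal kidneys (median 101). The groups did not overlap, and the log2 fold change was 2.34 (SE 0.20, adjusted p = 6.64e-09). Ugdh, which makes the UDP-glucuronate used in glucuronidation, had 241 to 566 CPM in tumors (median 367) and 66.0 to 255 CPM in normal kidneys (median 84.7), with a log2 fold change of 1.67 (SE 0.26, adjusted p = 2.38e-05). In both groups Cat, the peroxisomal catalase, had the highest mean of the 35 genes per kilobase of the gene length in the count table. It had 779.7 to 2840.0 CPM in tumors (median 2298) and 718 to 1170.4 CPM in normal kidneys (median 1018). The 9 tumors other than tumor 7 were above every normal kidney, and the log2 fold change was 1.12 (SE 0.18, adjusted p = 2.33e-05). Esd, an esterase that hydrolyzes S-formylglutathione, had 709 to 909.7 CPM in tumors (median 806) and 301 to 849 CPM in normal kidneys (median 331), with a log2 fold change of 0.78 (SE 0.20, adjusted p = 0.00303).

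The other 3 did not pass the test. Mgst1, a membrane-bound glutathione transferase and peroxidase of the microsomes, had 216 to 468 CPM in tumors (median 283) and 130.4 to 691 CPM in normal kidneys (median 172). All 10 tumors were above the median normal kidney, while normal kidneys 8 and 5 were the highest libraries of all, and the log2 fold change was 0.14 (SE 0.29, adjusted p = 0.726). It was 0.79 (adjusted p = 0.00226) without normal kidneys 5, 7 and 8. Osgin1, an oxidative stress-induced growth inhibitor, had 45.2 to 151 CPM in tumors (median 72.1) and 37.7 to 147 CPM in normal kidneys (median 99.6), with a log2 fold change of -0.23 (SE 0.25, adjusted p = 0.471). Aldh3a1, an aldehyde dehydrogenase, was low in all libraries. It was read 535 times in tumor 7 (22.8 CPM), 53 times in tumor 9, 1 time in tumor 8 and 0 times in the other tumors, and 0 to 163 times in normal kidneys (at most 5.95 CPM). The log2 fold change of 0.49 (SE 1.19, adjusted p = 0.757) rests on tumor 7, and without that library it was -2.72 (adjusted p = 0.0282).

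The libraries differed in how far they carried the pattern. Tumors had between 16 (tumor 7) and 24 (tumor 2) of the 35 genes above every normal kidney. The same count was not made over all genes for each tumor, so these counts do not set the 35 genes apart from others. Tumor 2 was the highest tumor for 12 genes (34.3%), against 9.07% of all genes tested. Tumor 7 was the lowest for 12 (34.3%) and the highest for 6 (17.1%), against 30% and 25.4% of all genes. Normal kidney 5, 7 or 8 was the highest normal kidney for 26 of the 35 genes (74.3%), and for 38.24% of all genes tested. Taken singly, normal kidney 7 was the highest for 16 (45.7%, against 15.9% of all genes) and normal kidney 5 for 9 (25.7%, against 16.7%). Normal kidney 8 was the highest for 1 (2.86%, against 5.64%). The SD of the log2 values was larger in normal kidneys than in tumors for 29 genes (82.9%), against 63.9% of all genes tested. The median ratio of the SD in normal kidneys to that in tumors was 1.68 for the 35 genes and 1.24 for all genes. Without normal kidneys 5, 7 and 8, 20 genes had all tumors above all normal kidneys, a pattern that 12.2% of the genes then tested had. Gclc, Gclm, Gsr, Idh1, Hmox1 and Mgst1 were then added to the genes that passed the test, whereas Akr1b3, Osgin1 and Aldh3a1 still did not pass.

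**Figure D4:**
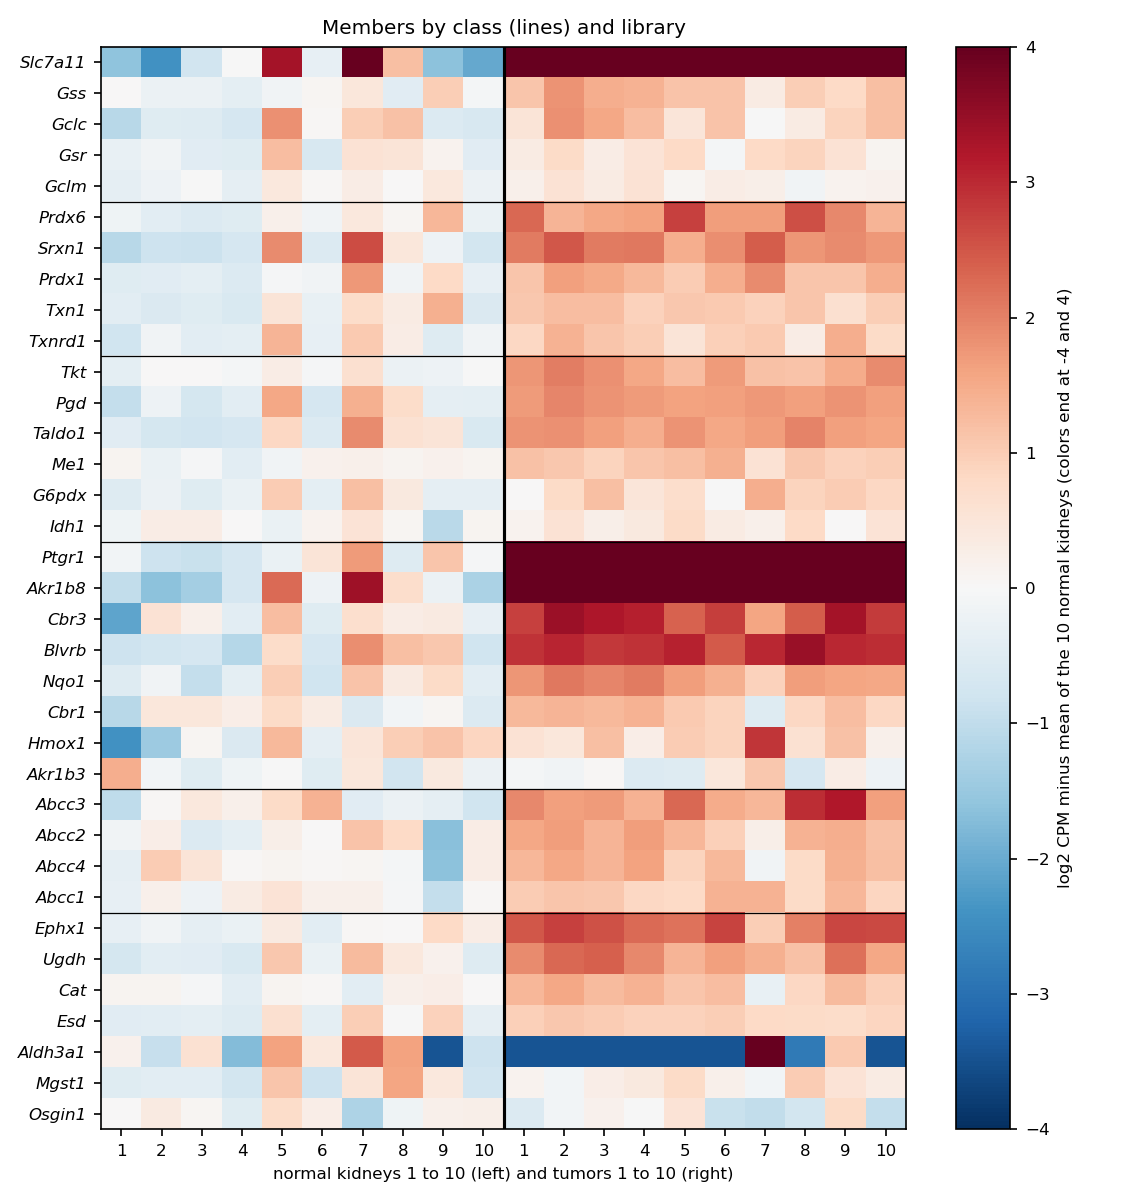
Log2 CPM of each of the 35 genes in each library minus the mean of the 10 normal kidneys, with genes in rows by class and normal kidneys (left) and tumors (right) in columns. Red is above and blue below that mean, and colors end at -4 and 4. Slc7a11, Ptgr1 and Akr1b8 are dark red across all tumors, and normal kidneys 5 and 7 show more red than the other normal kidneys.

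Dividing CPM by the gene length in the count table gave orders that differed between tumors and normal kidneys. That length need not be that of the transcript present, so ranks between genes depend on it. In tumors the highest were Cat, at 809 ± 218 CPM per kilobase (SD, n = 10), Prdx1, at 656 ± 133, Taldo1, at 437 ± 48.1, and Txn1, at 410.3 ± 47.0. The spreads between tumors overlapped for Cat and Prdx1 and for Taldo1 and Txn1. Within libraries, Cat was above Prdx1 in every tumor other than tumor 7, where Cat was at 298 and Prdx1 at 933. In normal kidneys the highest were Cat, at 373 ± 57.1, Prdx1, at 290.2 ± 207, and Txn1, at 226 ± 131, and these ranges overlapped. Ptgr1 was the 32nd of the 35 genes in normal kidneys, at 4.67 ± 3.43 CPM per kilobase, and the 10th in tumors, at 241 ± 48.7. Slc7a11, for all its difference, was the 32nd in tumors, at 12.5 ± 7.55, and the last in normal kidneys, at 0.379 ± 0.703.

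Other genes of the same pathways did not move in 1 direction. Of 61 such genes outside the 35, listed by hand, 12 were higher and 12 lower in tumors (19.7% each, against 23.6% and 23.8% of all genes), and their median log2 fold change was 0.02. Both lists were drawn up with earlier results of these data known, so the contrast between them may reflect how they were drawn. Among genes of glutathione breakdown and reduction, Anpep, an aminopeptidase that cleaves the cysteinyl-glycine left by glutathione breakdown, rose by 2.87 on the log2 scale. Ggct, a gamma-glutamylcyclotransferase, fell by 2.26, and Glrx2, the mitochondrial glutaredoxin, fell by 0.50. Among the thioredoxin, peroxiredoxin and superoxide dismutase genes, Prdx4 of the endoplasmic reticulum rose by 1.51, while Sod1, the cytosolic superoxide dismutase, fell by 1.48 and the mitochondrial Txn2 by 0.49. Of other genes that make or use NADPH in the same steps, the mitochondrial folate enzymes Aldh1l2 and Mthfd2 rose by 2.74 and 1.37, and the mitochondrial malic enzyme Me3 and the cytosolic Aldh1l1 fell by 1.81 and 1.71. Of the paralogs of the reductases and detoxification enzymes, Aldh3b1 and Mgst2 rose by 1.30 and 1.00, and Akr7a5 and Hmox2 fell by 0.97 and 0.71. Mgst2 was hardly read, with no more than 15 counts in any normal kidney and 72 in any tumor. Its highest library was tumor 7, at 3.07 CPM. For this gene 7 tumors lay above every normal kidney and 2 lay below every one. The transporters Abcg2 and Abcc5 rose by 1.51 and 0.89. Of 3 other genes commonly described as Nrf2 targets, the ferritin light chain Ftl1 and the autophagy receptor Sqstm1 rose by 0.96 and 0.85, and the ferritin heavy chain Fth1 did not pass the test (0.07, adjusted p = 0.85). The adjusted p-values of the genes said to rise or fall here lay between 1.46e-08 and 0.0361. Normal kidney 9 was the highest normal kidney for each gene said to fall. It had 420.2 CPM of Txn2 and 839 CPM of Akr7a5, against at most 167 and 299 CPM in the other normal kidneys. Fold changes of these genes without that library are not given here. Every tumor was below every normal kidney for Ggct, Sod1, Aldh1l1 and Hmox2.

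Ratios of paired genes within a library need no scaling between libraries. The log2 ratio of cytosolic Txn1 to mitochondrial Txn2 was 1.78 ± 0.11 (SD, n = 10) in tumors against 0.35 ± 0.63 (SD, n = 10) in normal kidneys, a difference of 1.43 (permutation test, two-sided, adjusted p = 6e-05 over 9 pairs). The ratio of Akr1b8 to Akr1b3 differed by 4.65 and that of Cbr3 to Cbr1 by 1.82, each with the same adjusted permutation p of 6e-05. For these 3 pairs all 10 tumors were above every normal kidney, and the raw p of 2e-05 is the smallest that the resamples can give. The ratio of inducible Hmox1 to constitutive Hmox2 was higher in tumors by 1.60 (adjusted permutation p = 0.00202) and that of cytosolic Txnrd1 to mitochondrial Txnrd2 by 1.27 (adjusted permutation p = 0.00392). Hmox2, Txn2 and Txnrd2 themselves fell, by 0.71, 0.49 and 0.36, with normal kidney 9 the highest normal kidney for each. The ratio of Gclc to Gclm differed by 0.67 and that of Me1 to Me2 by 0.77, each with an adjusted permutation p of 0.0495. With same-numbered libraries as a replicate block both had an adjusted permutation p of 0.116. These passed in 5 and in 7 of 20 comparisons with 1 library left out, with adjusted permutation p-values up to 0.0888 and 0.0892. The ratio of Idh1 to the mitochondrial Idh2 differed by 0.40 (adjusted permutation p = 0.366), by 0.1185 to 0.5971 with 1 library left out, and by 0.81 (adjusted permutation p = 0.0116) without normal kidneys 5, 7 and 8. The ratio of G6pdx to H6pd, the dehydrogenase of the endoplasmic reticulum, differed by -0.04 (adjusted permutation p = 0.857), and H6pd itself rose by 0.67 on the log2 scale.

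**Figure D5:**
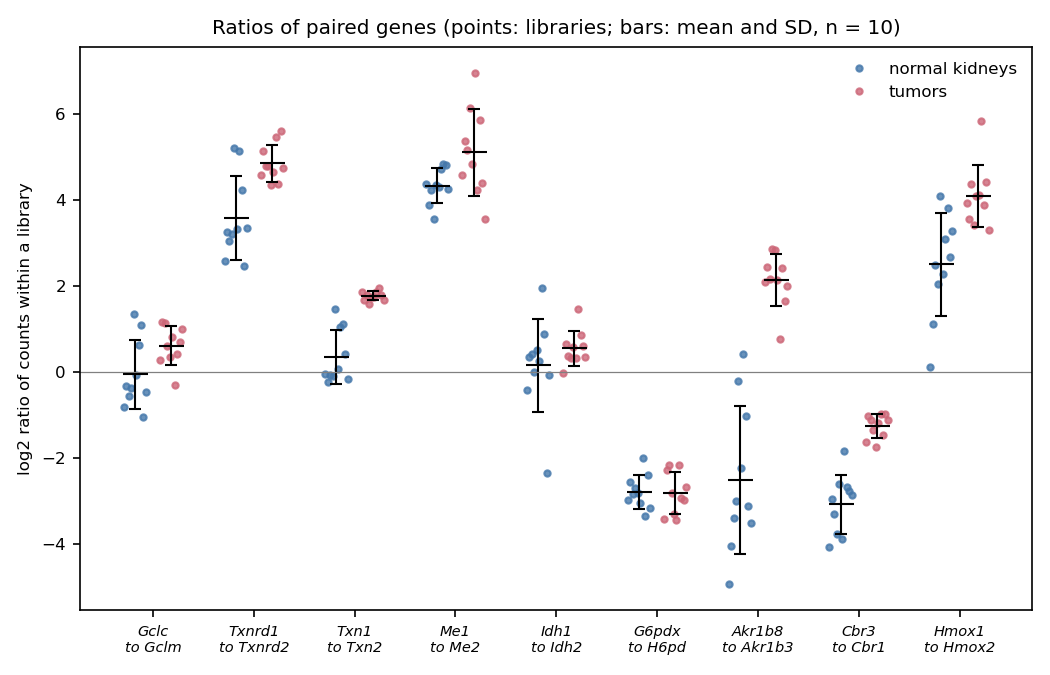
Log2 ratio of the counts of paired genes within each library, with normal kidneys in blue and tumors in red and black bars at the mean and SD (n = 10 each). Tumors lie above all normal kidneys for Txn1 to Txn2, Akr1b8 to Akr1b3 and Cbr3 to Cbr1, and the groups coincide for G6pdx to H6pd.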

How the data were processed

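RNA of flash frozen and pulverized tissue was extracted with Trizol, enriched for poly(A) and sequenced by a company (Novogene) as Illumina read pairs of 150 bases. The authors deposited raw read counts per gene for 20 libraries without normalization. The build per the labels is mm10, and the aligner, the counting tool and whether strand was used are not given in the sources used here. Groups were taken from the sample labels. No row lacked a gene name and 0 columns of per-sample values were left unused. The table also pairs each gene with its position and length, which were used as deposited.

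Counts were normalized with TMM factors (0.881 to 1.11 in tumors, 0.749 in normal kidney 9 and 1.03 to 1.14 in the other normal kidneys) in edgeR 4.0.16 (R 4.3.3). Genes were filtered at a count minimum of 10, and edgeR's quasi-likelihood test was run over 15354 genes with Benjamini-Hochberg adjustment, all 20 libraries and no covariate. The test was tried first on simulated counts. CPM values use the TMM factors, and SDs of log2 values a prior count of 2. Ratios were computed with a pseudocount of 1 and tested with 100000 resamples (scipy 1.17.1, seed 20240), adjusted over 9 pairs. Alternatives were other scaling, no filter, DESeq2 1.42.0, limma-voom (limma 3.58.1), a replicate block and left-out libraries.

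The members and gene lists were chosen with earlier results of these data known. Named in the text are all 35 members, the partners in the 9 pairs, the targeted genes with Nfe2l2, and of 61 other pathway genes the 2 largest rises and the 2 largest falls past the threshold in each list. Fth1, Pgls, Rpe, Rpia and the overlapping genes Acss2 and Ikbkg fall outside this rule and were named after their values were seen. Nnt was left out because 2 gene IDs share its name. Since tumors and normal kidneys come from a cohort of 10 mice and the labels do not tie libraries to mice, p-values measure the spread between libraries.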

Additional observations from a re-analysis of the deposited data

Results flagged for a closer look

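In 11 of the 70 groups formed by a gene and a condition, the highest or lowest of the 10 libraries stood farther from its nearest neighbor than Dixon's 95% critical value allows. Chance alone would give about 1 in 20 groups. The same was seen in 22.2% of such groups over all genes tested and in 15.7% of the 70. Tumor 7 accounted for 6 of the 11 (54.5%), against 27% over all genes, and normal kidney 9 for 3 (27.3%), against 56.6%. Over all genes tested, tumor 7 was the lowest tumor for 30% and the highest for 25.4%. In its 6 cases it was the lowest tumor for Cbr1 (243 CPM), Abcc2 (552.6 CPM), Abcc4 (239.7 CPM), Ephx1 (209.5 CPM) and Cat (779.7 CPM), and the highest for Hmox1 (1904 CPM). The same library had the lowest proximal tubule sum (1227 CPM) and the highest macrophage (2465 CPM) and fibroblast (7880 CPM) sums of the tumors. Its erythroid, adipocyte and urothelium sums were also the highest of the tumors. The part of these in its values was not tested. Normal kidney 9, which had the lowest normalization factor, was the highest normal kidney for Prdx6 (659.3 CPM) and the lowest for Idh1 (233.3 CPM) and Abcc4 (84.46 CPM). Tumor 2 was the highest tumor for Pgd (827.7 CPM), and normal kidney 1 was the lowest normal kidney for Cbr3 (9.568 CPM).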

How the results depend on the processing

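The count of genes higher in tumors was 28 with limma-voom (Gclc and Idh1 were added), 32 with quality weights (Gclc, Gclm, Gsr, Idh1, Hmox1 and Mgst1 were added) and between 25 and 28 with 1 library left out, and the count past both limits between 18 and 22. The number of genes with every tumor above every normal kidney lay between 10 and 14, and was 20 without normal kidneys 5, 7 and 8, an alternative chosen after seeing the data. The count of other pathway genes that rose was 25 with limma-voom and quality weights, and lay between 11 and 16 with 1 library left out. The count of lower genes was 1, Aldh3a1, with DESeq2, limma-voom, limma-voom with quality weights and without tumor 7 and normal kidney 9, and 0 to 1 with 1 library left out. With quality weights that gene also passed both limits (count of 1). Its log2 fold change was -2.65 (adjusted p = 0.0408) with DESeq2, -3.45 (0.02) with limma-voom, -4.55 (2.11e-06) with quality weights, -3.43 (0.0527) with a replicate block, -2.88 (0.0155) without tumor 7 and normal kidney 9 and between -2.72 (without tumor 7) and 0.94 (without normal kidney 7) with 1 library left out. That of Akr1b3 ranged from -0.26 (without tumor 7) to 0.17 (without normal kidney 1). G6pdx was not called with upper quartile scaling (adjusted p = 0.0673), with library totals (0.0917) or without tumor 7 and normal kidney 9 (0.11). Over all genes, 3631 were higher and 3661 lower, against 3000 and 4650 with upper quartile scaling, 2850 and 4554 with library totals, and 5337 and 5407 with quality weights. With 1 library left out, the difference in log2 ratio ranged from 0.5621 to 0.8283 for Gclc to Gclm, from 0.5679 to 0.9461 for Me1 to Me2, from -0.109 to 0.05259 for G6pdx to H6pd and from 0.1185 to 0.5971 for Idh1 to Idh2. The last was 0.81 without normal kidneys 5, 7 and 8. Tumors and normal kidneys carry the same numbers, and the labels do not say that a number marks a mouse. Deviations of same-numbered libraries correlated between -0.143 and 0.377, with 9 of 10 above 0.1, and 8 of 10 tumors correlated best with their own number. With a replicate block, 28 genes were higher (Gsr and Idh1 were added) and 0 lower, and the differences of Gclc to Gclm (0.6725) and Me1 to Me2 (0.7742) had an adjusted permutation p of 0.116. The causes of these changes were not tested.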
